A study of Homo sapiens with 6 samples.

Results

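Elastic microfibril genes are described here in SH-SY5Y, a human neuroblastoma line with features of immature sympathetic neurons, with and without an intact DNAJC12 gene. The 10 genes are the fibrillins FBN1 and FBN2, the microfibril-associated proteins MFAP2, MFAP4 and MFAP5, elastin (ELN) and the latent TGF-beta binding proteins LTBP1 to LTBP4. They were taken by gene symbol from a deposited table of 20668 genes, and each symbol had 1 gene ID. The group was chosen by measured values: MFAP5 was known to have no count in wild-type cells and many in the knockout, and LTBP1 to be higher there. All values of the 10 genes for knockout against wild type are therefore a description, and their p-values, from the fit over all genes, support nothing further.

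The tested cells carried a CRISPR/Cas9 knockout of DNAJC12, which encodes an HSP70 co-chaperone (DNAJC12-KO, 3 libraries), and were set against wild-type cells of the same line (WT, 3 libraries). Both were untreated. The labels do not say whether replicates came from separate cultures, or the knockout from 1 clone. The spread behind each p-value is that between libraries and may be technical. The study asked about the invasion of the cells.

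Microfibrils are thin extracellular filaments built on fibrillin. MFAP2, MFAP4 and MFAP5 bind to them, and in elastic tissues they guide the deposition of elastin, which lysyl oxidases then cross-link. Latent TGF-beta binding proteins share the domain types of fibrillins, and LTBP1, LTBP3 and LTBP4 hold latent TGF-beta in the matrix until it is activated, whereas LTBP2 does not bind it. These genes are best known from fibroblasts and smooth muscle rather than from neurons.

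Each library held between 19321842 and 21869659 counts, and a floor of 3 counts was worth 0.137 to 0.155 counts per 1000000 (CPM). DNAJC12 RNA had 5.91, 5.87 and 4.85 CPM in the DNAJC12-KO libraries, against 23.0, 21.4 and 20.04 CPM in the WT libraries, and was thus lower in each DNAJC12-KO library, though not absent. Levels are CPM scaled by the trimmed mean of M-values (TMM), and fold changes are log2 values of DNAJC12-KO over WT, ± SE, from edgeR's quasi-likelihood test over all 16403 genes tested (n = 3 per genotype). A gene was called higher or lower at a Benjamini-Hochberg adjusted p of at most 0.05. Of the 10 genes, 9 passed the filter on low counts and were tested, and FBN2 did not. Of those 9, 4 were called higher, 2 lower and 3 did not pass, where 26.0% of all genes tested were called (14.5% higher and 11.5% lower). MFAP5 passed the filter through its knockout counts alone. The libraries of the genotypes did not overlap for 7 of the 10 genes, 5 of them higher and 2 lower in DNAJC12-KO, where 41.7% of all genes tested did not overlap (21.7% higher and 20.1% lower). The median log2 fold change of the 9 genes was 0.02, beside 9.19e-06 for all genes tested.

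**Figure D1:**
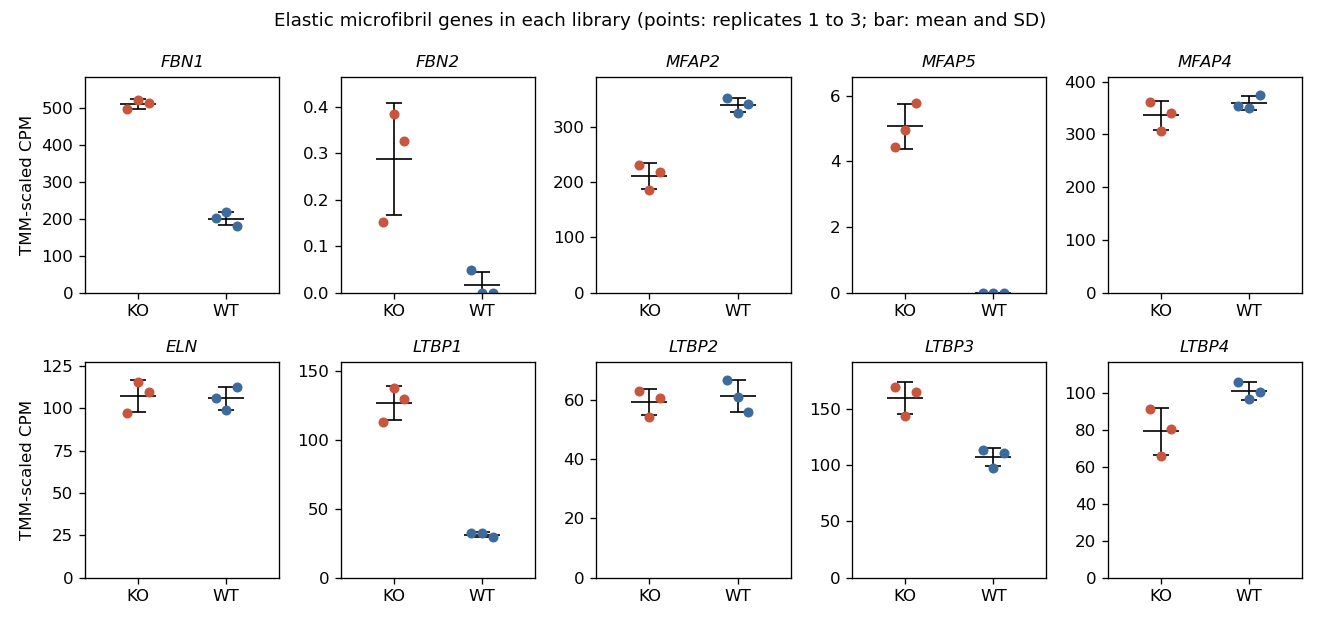
TMM-scaled CPM of each gene (vertical axes, from 0) in the 3 DNAJC12-KO and the 3 WT libraries; points are libraries, bars the mean and SD. FBN1, FBN2, MFAP5, LTBP1 and LTBP3 lie higher in every DNAJC12-KO library than in any WT library, MFAP2 and LTBP4 lie lower, and MFAP4, ELN and LTBP2 overlap.

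FBN1 encodes fibrillin-1, the main structural protein of microfibrils after birth. It had 497, 521 and 514 CPM in the DNAJC12-KO libraries, against 203, 218 and 181 CPM in the WT libraries. The genotypes were far apart, and the DNAJC12-KO libraries differed little among themselves, with a coefficient of variation of 2.43%, beside 9.36% in WT. The log2 fold change was 1.35 ± 0.07 (edgeR adjusted p = 4.17e-07), or 2.55-fold. In GRCh38.p14 the gene (ENSG00000166147) spans bases 48408313 to 48645709 of chromosome 15. Most of its estimated reads went to the transcript ENST00000559133, which took 74.1%, 72.1% and 74.4% of them in the DNAJC12-KO libraries and 74.2%, 76.5% and 69.6% in the WT libraries. The full-length ENST00000316623 took 24.7%, 26.7% and 24.3% in the DNAJC12-KO libraries and 25.1%, 21.6% and 28.0% in the WT libraries. The division of reads between them was thus alike in both genotypes, and both were higher in the knockout, by 2.56 and 2.62 times in reads per 1000000, scaled like CPM (RPM). GENCODE release 29 types ENST00000559133 as nonsense-mediated decay, not as protein-coding. It has 9910 bases in the deposited files and 4901 in that release, so its structure in the authors' annotation is not known here.

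FBN2 encodes fibrillin-2, a fibrillin of developing tissues, and was near the limit of detection. It had 3, 8 and 7 counts in the DNAJC12-KO libraries, against 1, 0 and 0 counts in the WT libraries. The ratio of summed counts was 17.4, with an exact 95% interval of 2.75 to 727 that covers counting error only. FBN2 overlaps SLC27A6, which lies on the other strand and had 272 to 347 counts in the DNAJC12-KO libraries and 196 to 237 in the WT libraries. The FBN2 counts equal the sums of the estimated reads of its transcripts. Whether the estimation used strand is not known here, and whether reads were exchanged within the pair was not tested. The third fibrillin gene, FBN3, had 4, 4 and 1 estimated reads in the DNAJC12-KO transcript files and 0 in each WT file.

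The paired microfibril-associated glycoproteins MFAP2 and MFAP5 went in opposite directions. MFAP2, also known as MAGP-1, binds fibrillin and TGF-beta family growth factors. It had 232, 185 and 218 CPM in the DNAJC12-KO libraries, against 352, 326 and 342 CPM in the WT libraries. Each DNAJC12-KO library lay under each WT library, with a log2 fold change of -0.68 ± 0.08 (edgeR adjusted p = 0.000135), or 1.61-fold lower. The transcript ENST00000375535 took 85.4% to 89.2% of its reads in the DNAJC12-KO libraries and 87.8% to 89.9% in the WT libraries. MFAP2 (ENSG00000117122) lies on chromosome 1 from 16974502 to 16981583.

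MFAP5, also known as MAGP-2, carries an integrin-binding motif that MFAP2 lacks. It had 87, 103 and 124 counts in the DNAJC12-KO libraries, or 4.43, 4.96 and 5.78 CPM, and no count in any WT library. Against the floor of 3 counts over the WT libraries together it was at least 101-fold higher in DNAJC12-KO. The exact 95% lower limit of the ratio, which covers counting error only, was 82.0. The bound was 66.4 without WT replicate 1, 68.1 without WT replicate 2 and 68.3 without WT replicate 3, since fewer WT counts then set the floor. The transcript files listed MFAP5 at 0 in every WT library, but the gene counts match their sums, so this is no separate measurement. In the DNAJC12-KO libraries ENST00000359478 took 88.8%, 60.5% and 67.7% of its reads. In TPM, Salmon's measure of RNA level per length, MFAP5 was small beside MFAP2, at 1.11%, 1.45% and 1.39% of their sum in the DNAJC12-KO libraries, and 0 in WT. MFAP5 (ENSG00000197614) lies on chromosome 12 from 8645943 to 8662826.

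MFAP4, a fibrinogen-domain protein that binds fibrillin and elastin, did not pass. It had 361, 307 and 340.2 CPM in the DNAJC12-KO libraries, against 354, 349.7 and 375 CPM in the WT libraries, with a log2 fold change of -0.10 ± 0.07 (edgeR adjusted p = 0.362). Elastin did not pass either, with 97.2, 116 and 109.5 CPM in the DNAJC12-KO libraries, against 106, 99.1 and 113 CPM in the WT libraries, and a log2 fold change of 0.02 ± 0.08 (edgeR adjusted p = 0.897). For both genes the genotypes overlapped. The sign for ELN turned with library sizes in place of TMM (-0.036), with length-corrected transcript counts (-0.013) and without DNAJC12-KO replicate 2 (-0.037) or WT replicate 2 (-0.032). ELN reads were spread over 24 annotated transcripts, of which none took more than 31.6% in any library. MFAP4 (ENSG00000166482) overlaps MAPK7 on the other strand, which had 822 to 977 counts in the DNAJC12-KO libraries and 825 to 910.0 in the WT libraries.

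Among the latent TGF-beta binding proteins, LTBP1 differed most between genotypes. It had 113, 138 and 130.04 CPM in the DNAJC12-KO libraries, against 32.3, 32.2 and 29.2 CPM in the WT libraries, and was 4.06-fold higher. LTBP1 (ENSG00000049323, chromosome 2 from 32946953 to 33399509) is known for a long and a short protein made from separate transcription starts. The promoters of both starts are printed because RNA from both was higher in the knockout. They run from 250 bases before to 50 after a RefSeq start in GRCh38.p14, plus strand, 5′ to 3′, and capitals mark the motif TGACGTCA, the cAMP response element.
LTBP1 upstream start, chr2:32946703-32947002: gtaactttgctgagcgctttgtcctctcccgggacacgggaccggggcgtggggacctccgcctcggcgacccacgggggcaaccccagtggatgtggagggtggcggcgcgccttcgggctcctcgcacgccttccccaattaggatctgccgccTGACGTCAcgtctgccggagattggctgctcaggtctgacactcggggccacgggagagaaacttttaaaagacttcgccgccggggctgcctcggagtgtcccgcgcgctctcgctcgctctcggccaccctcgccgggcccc
LTBP1 internal start, chr2:33134346-33134645: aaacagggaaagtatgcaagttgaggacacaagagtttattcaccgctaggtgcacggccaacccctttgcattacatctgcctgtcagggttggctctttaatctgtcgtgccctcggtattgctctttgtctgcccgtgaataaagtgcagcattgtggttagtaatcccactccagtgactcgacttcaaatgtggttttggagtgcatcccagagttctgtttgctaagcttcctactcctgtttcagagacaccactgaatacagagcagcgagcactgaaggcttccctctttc
The upstream promoter is rich in G and C (68.7%) with 33 CG pairs, and the internal one holds 48.3% G and C with 7 CG pairs, where the medians of all 35116 promoters in the table were 58.7% and 14.

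Transcripts of the upstream start took 1236, 1678 and 1440.0 estimated LTBP1 reads in the DNAJC12-KO libraries, against 340.1, 330.8 and 279.4 in the WT libraries. Those of the internal start took 983, 1129 and 1335 in the DNAJC12-KO libraries, against 327, 292.5 and 292 in the WT libraries. In RPM the upstream start was at 70.3 ± 9.34 in DNAJC12-KO and 15.8 ± 1.36 in WT, and the internal start at 55.6 ± 6.19 in DNAJC12-KO and 15.2 ± 0.550 in WT (SD, n = 3 each). Both starts were thus higher, by 4.44 and 3.66 times. The upstream start held 55.6%, 58.6% and 51.6% of LTBP1 reads in the DNAJC12-KO libraries and 51.0%, 52.1% and 48.9% in the WT libraries, ranges that overlap.

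LTBP3, which helps to secrete and hold latent TGF-beta, had 169.7, 144 and 165 CPM in the DNAJC12-KO libraries, against 113, 97.5 and 110.5 CPM in the WT libraries. The genotypes did not overlap, with a log2 fold change of 0.58 ± 0.09 (edgeR adjusted p = 0.000561). LTBP2, which binds fibrillin-1, had 63.0, 54.3 and 60.4 CPM in the DNAJC12-KO libraries, against 66.6, 61.0 and 55.9 CPM in the WT libraries, with a log2 fold change of -0.05 ± 0.09 (edgeR adjusted p = 0.761). Its genotypes overlapped, and the sign turned without DNAJC12-KO replicate 2 (0.012) or WT replicate 1 (0.017).

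LTBP4, which also takes part in elastic fibre assembly, had 90.9, 65.6 and 80.5 CPM in the DNAJC12-KO libraries, against 105.8, 96.4 and 100.3 CPM in the WT libraries. The log2 fold change was -0.35 ± 0.11 (edgeR adjusted p = 0.0354), and DNAJC12-KO replicate 2 was the lowest library. The call was lost without any single library other than DNAJC12-KO replicate 1 (adjusted p from 0.0501 to 0.116) and on counts summed from transcripts (0.0575). On length-corrected transcript counts the sign turned (0.044, adjusted p = 0.864). The reads of its starts were estimated unevenly: the transcript starting at 40601371 on chromosome 19 took 59.6%, 30.4% and 25.2% in the DNAJC12-KO libraries and 48.2%, 41.6% and 40.0% in the WT libraries, while the one starting at 40593166 took 0%, 19.9% and 19.5% in the DNAJC12-KO libraries and 0% in WT.

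Per length, LTBP1 took a larger part of the latent TGF-beta binding protein RNA in the knockout. It made up 16.1%, 24.7% and 21.0% of the summed TPM of LTBP1 to LTBP4 in the DNAJC12-KO libraries, against 6.52%, 8.04% and 5.96% in the WT libraries. LTBP4 made up 38.2%, 30.1% and 34.0% in the DNAJC12-KO libraries, against 47.6%, 45.7% and 44.4% in the WT libraries. The summed TPM of the 4 genes was 161, 146 and 148 in the DNAJC12-KO libraries, against 119.6, 112 and 115 in the WT libraries.

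**Figure D2:**
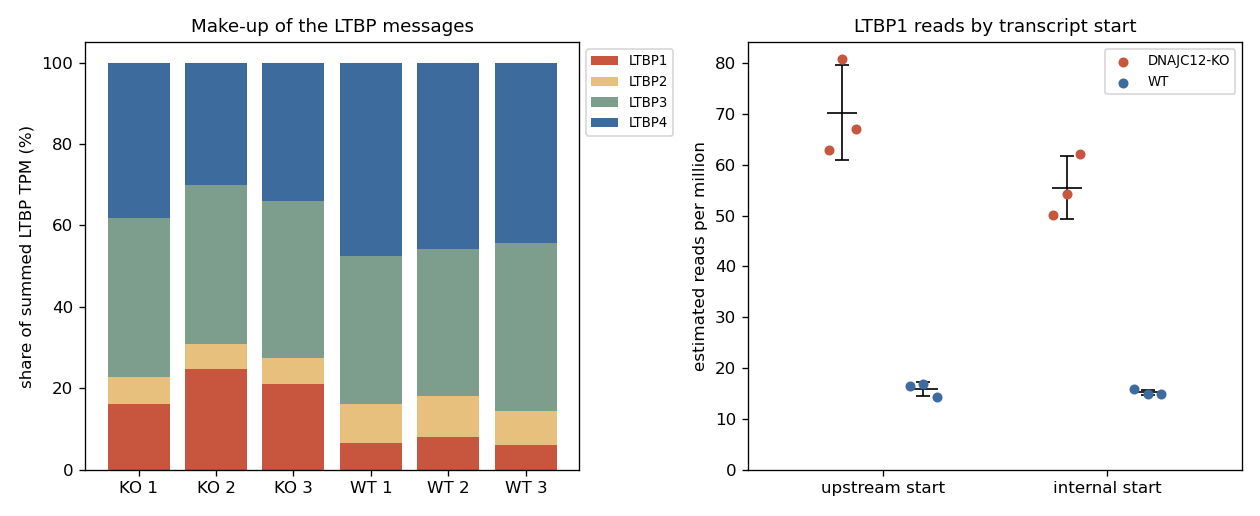
Left, share of each LTBP gene in the summed TPM of LTBP1 to LTBP4, in percent, for each library; right, estimated LTBP1 RPM (from 0) by transcript start, with points for libraries and bars for the mean and SD. LTBP1 takes 16.1% to 24.7% in DNAJC12-KO libraries and 5.96% to 8.04% in WT libraries, and both of its starts lie higher in every DNAJC12-KO library.

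The order of the 10 genes by TPM also differed in places. MFAP2 led in both genotypes, with 345 ± 32.4 TPM in DNAJC12-KO and 582 ± 20.2 TPM in WT (SD, n = 3 each), and MFAP4 came second with 252 ± 16.6 TPM in DNAJC12-KO and 284 ± 6.25 TPM in WT. In DNAJC12-KO these were followed by FBN1 at 64.9 ± 3.17 TPM, LTBP3 at 59.0 ± 3.30, ELN at 52.1 ± 3.89, LTBP4 at 51.9 ± 8.75 and LTBP1 at 31.0 ± 5.21. In WT they were followed by ELN at 55.4 ± 5.29 TPM, LTBP4 at 53.1 ± 3.38, LTBP3 at 43.8 ± 3.50, FBN1 at 30.7 ± 4.79, LTBP2 at 10.7 ± 0.960 and LTBP1 at 7.88 ± 1.07. Neighbours whose libraries overlapped were FBN1 with LTBP3 and ELN with LTBP4 in DNAJC12-KO, and ELN with LTBP4 and FBN2 with MFAP5 in WT, so their order is not resolved. Nor is that of LTBP3 and LTBP4 in DNAJC12-KO, which are not neighbours in rank but overlapped. MFAP2 exceeded FBN1 by 5.33 ± 0.645 times in DNAJC12-KO and 19.3 ± 3.54 times in WT. The TPM and rank of FBN1 rest largely on ENST00000559133, whose structure in the authors' annotation is not known here. Because MFAP2 leads, the summed TPM of all 10 genes was lower in the knockout, at 907, 813 and 891 in the DNAJC12-KO libraries, against 1094, 1048 and 1062 in the WT libraries. These are bulk libraries, in which fewer cells of a type and less RNA per cell cannot be told apart.

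**Figure D3:**
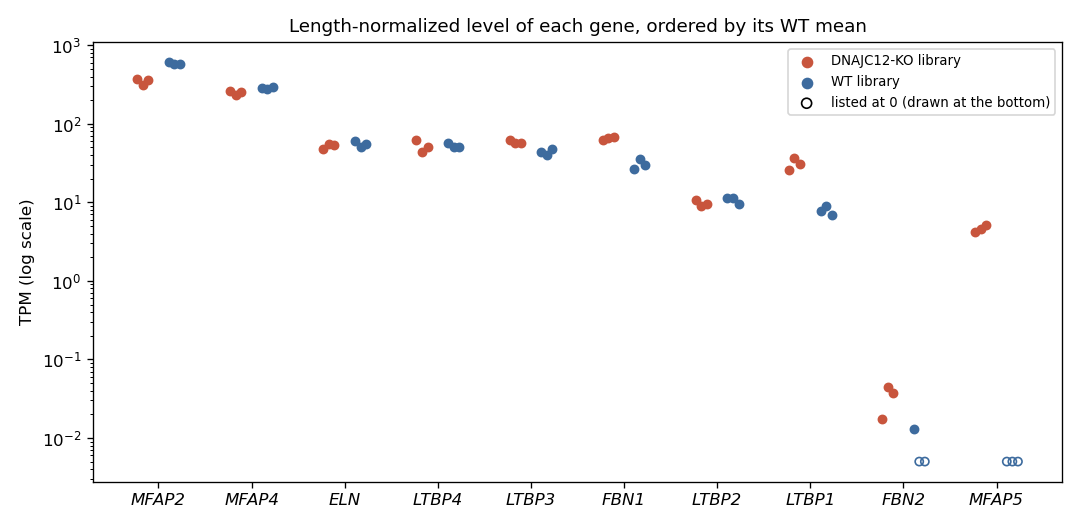
TPM of each gene (log axis) in the 3 DNAJC12-KO and 3 WT libraries, ordered by WT mean; open circles are libraries listed at 0, drawn at the bottom. MFAP2 and MFAP4 lead in both genotypes, FBN1 has rank 3 in DNAJC12-KO and rank 6 in WT, and MFAP5 is listed at 0 in all WT libraries.

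The 10 genes lie on 10 different chromosomes. Positions not yet given are, in GRCh38.p14, chr17:19383445-19387190 for MFAP4, chr5:128257909-128538245 for FBN2, chr7:74028173-74069907 for ELN, chr14:74498183-74612237 for LTBP2, chr11:65538559-65558359 for LTBP3 and chr19:40593166-40629820 for LTBP4. Around each, the 20 tested genes with a RefSeq position were taken, 10 on either side by start. Their median log2 fold change lay between -0.12 (LTBP2) and 0.15 (LTBP1). Of these 20 genes, 6 were called higher and 0 lower around LTBP1, 5 and 4 around ELN, 4 and 1 around FBN1, 3 and 4 around MFAP4, and 3 and 2 around FBN2. Around LTBP4 2 were called higher and 5 lower, around LTBP2 2 and 2, around MFAP2 2 and 1, around MFAP5 1 and 5, and around LTBP3 0 and 2. Among all genes tested 14.5% were called higher and 11.5% lower.

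RefSeq promoters were found for 7 of the 10 genes, 12 promoters in all; MFAP4, MFAP5 and ELN had none in the table. Of 4 motifs searched on both strands, TGACGTCA occurred in 1 of the 12, at 94 bases before the upstream LTBP1 start, where 1.85% of all 35116 promoters held it. TGANTCA, the AP-1 motif, occurred at 145 and 60 bases before the MFAP2 start at 16981583 (7.71% of all promoters held it). GGAATG, the TEAD motif, occurred at 58 bases before the FBN1 start at 48644970 and 170 bases before the LTBP4 start at 40593166 (14.03% of all promoters). That LTBP4 start took 0% of LTBP4 reads in each WT library and in DNAJC12-KO replicate 1. The LTBP4 start with the most reads in every library was at 40601371. The MFAP2 window with TGANTCA does not belong to the main transcript, as no MFAP2 transcript with reads starts at 16981583 in GENCODE. The full-length FBN1 transcript ENST00000316623 starts at 48645849, outside the FBN1 window. Where ENST00000559133, which took most FBN1 reads, starts in the authors' annotation is not known here. TATAAA, the TATA box, was in none of the 12 windows (11.5% of all promoters), and no motif overlapped another. The MFAP2 window around the start at 16980620 is shown beside those of LTBP1, as that of a gene lower in the knockout. GENCODE places the start of the leading transcript ENST00000375535 inside it, at 16980835, near its upstream end. Most of the window thus lies after that start, not before it. The window holds 76.7% G and C, 36 CG pairs and none of the 4 motifs.
MFAP2, chr1:16980571-16980870, minus strand: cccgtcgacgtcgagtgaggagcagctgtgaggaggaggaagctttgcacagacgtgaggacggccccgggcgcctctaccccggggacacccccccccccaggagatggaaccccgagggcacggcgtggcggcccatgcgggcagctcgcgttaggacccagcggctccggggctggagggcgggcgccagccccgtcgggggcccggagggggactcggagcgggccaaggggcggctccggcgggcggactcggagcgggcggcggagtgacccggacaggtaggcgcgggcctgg

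Genes that act with microfibrils were read from 6 lists of 49 genes, chosen for their known roles with earlier results of these data known. Of 42 tested, 15 were called higher, 8 lower and 19 did not pass, with a median log2 fold change of 0.32, again beside 26.0% called among all genes. Some of those called passed the filter on low counts only through the genotype where they were higher, as MFAP5 did. Among them were EMILIN3, HMCN1, LOXL1 and THBS1, through the knockout, and NRROS, through WT. Their calls are a description only. The lists below give the 4 members with the smallest adjusted p, as far as they were called. With length-corrected transcript counts 9 were called higher and 6 lower among 39 tested.

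The largest differences were in TGF-beta supply and activation, where 5 of 11 genes were called higher and 2 lower. The ligand gene TGFB2 averaged 61.1 ± 10.2 CPM in DNAJC12-KO and 1.99 ± 0.0866 CPM in WT (SD, n = 3 each; edgeR adjusted p = 1.25e-08), and THBS1, a matrix protein that activates latent TGF-beta, 39.8 ± 2.97 CPM in DNAJC12-KO and 1.30 ± 0.709 CPM in WT (edgeR adjusted p = 3.08e-07). The integrin subunit genes ITGB3 (1.99 ± 0.13) and ITGB5 (1.09 ± 0.09) were also called higher; their proteins pair with the product of ITGAV, which did not pass (0.25 ± 0.11). TGFB1 (-0.43 ± 0.11) and NRROS (-3.29 ± 0.45), which anchors latent TGF-beta on myeloid cells, were called lower, and TGFB3 (1.02 ± 0.15) higher; these 3 and ITGAV are named after their values were seen. TGFB1 did not pass without WT replicate 2 (adjusted p = 0.0545) or 3 (0.0520), nor TGFB3 with length-corrected transcript counts (0.131). NRROS lies in a part of chromosome 3 where 10 of its 20 surrounding tested genes were called lower and 0 higher (median -0.41).

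Among fibulins, which link microfibrils and elastin, 2 of 6 tested were called higher and 2 lower. FBLN1 (-0.48 ± 0.06), the highest in CPM, which are not corrected for length, and FBLN7 (-1.09 ± 0.13) were lower. EFEMP2 (0.40 ± 0.11), which is needed for elastin cross-linking, and HMCN1 (4.32 ± 0.61, from 90 counts in DNAJC12-KO and 4 in WT) were higher. Of 3 emilins tested, EMILIN3 (2.88 ± 0.34) was higher, and EMILIN1 (-0.22 ± 0.06), which lies where microfibrils and elastin meet, was lower. Of 5 lysyl oxidases, LOXL1 (1.88 ± 0.51), at 0.931 ± 0.233 CPM in DNAJC12-KO and 0.248 ± 0.143 CPM in WT (SD, n = 3 each), was called higher and 4 did not pass. The calls of EFEMP2, EMILIN1 and LOXL1 were lost in some settings, with adjusted p up to 0.103, 0.0962 and 0.628; the last, with length-corrected transcript counts, came with a log2 fold change of 0.82.

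Of 7 fibrillin-binding ADAMTS and ADAMTSL genes tested, the protease gene ADAMTS10 (0.82 ± 0.17) and THSD4 (1.89 ± 0.13), whose product promotes fibrillin-1 deposition, were higher. ADAMTSL2 (-1.18 ± 0.12) and ADAMTSL4 (-0.84 ± 0.17) were lower, the first without passing when transcript counts were used (adjusted p = 0.0917 for sums, 0.164 with length correction). Of 10 other partners tested, 4 were called higher and 1 lower. They included the cross-linking enzyme gene TGM2 (1.76 ± 0.10), the fibronectin receptor subunit gene ITGA5 (1.44 ± 0.14) and the perlecan gene HSPG2 (0.69 ± 0.10, adjusted p = 0.0501 with length-corrected transcript counts). The proteoglycan gene DCN was lower, at 20.7 ± 1.23 CPM in DNAJC12-KO and 159 ± 7.93 CPM in WT (SD, n = 3 each).

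**Figure D4:**
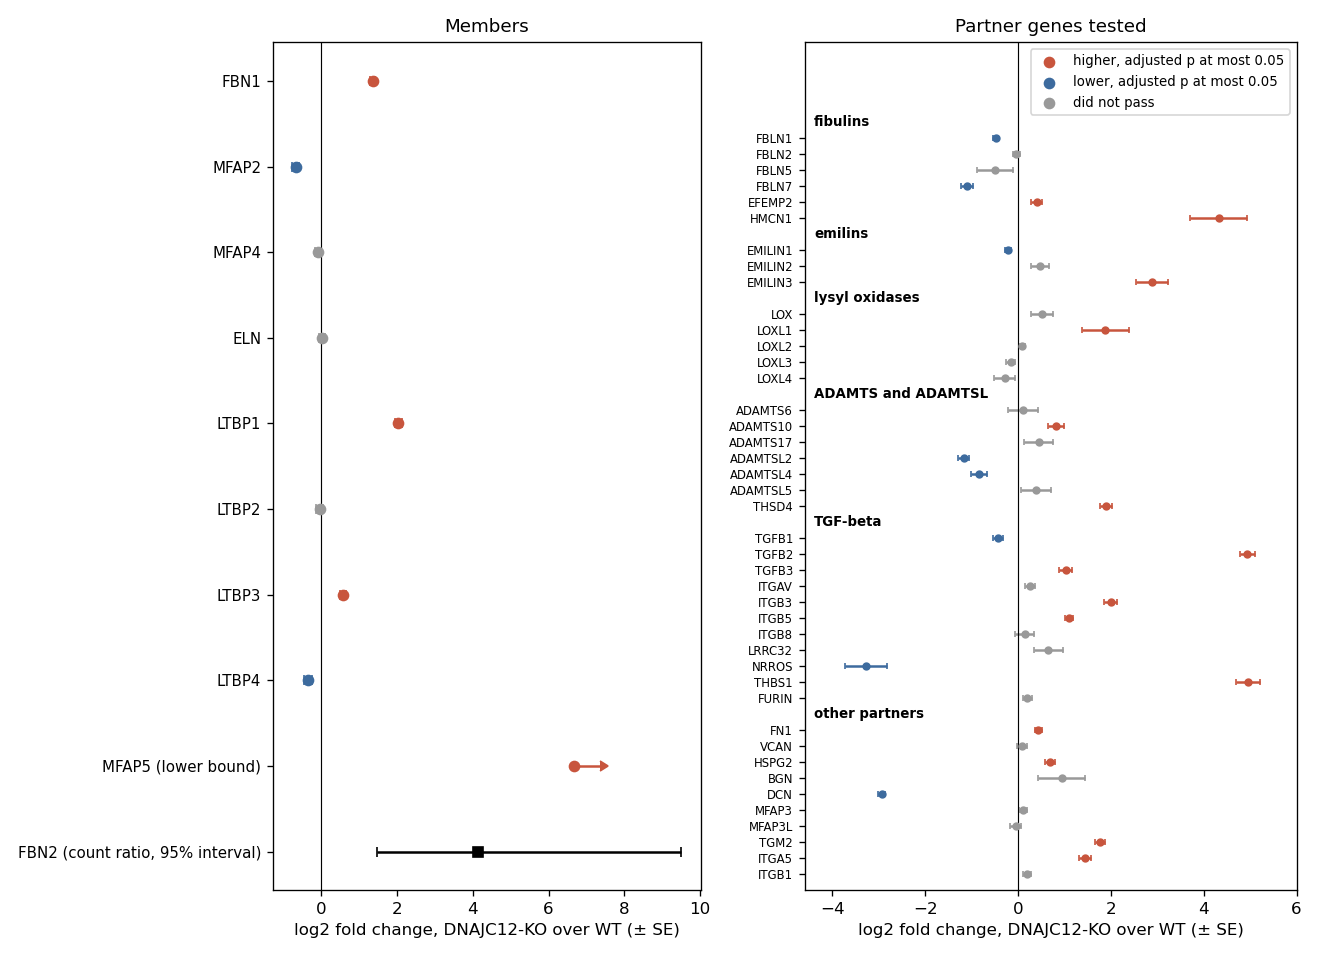
Log2 fold change of DNAJC12-KO over WT, ± SE, for the microfibril genes (left) and the 42 partner genes tested (right); colours give the call at an adjusted p of 0.05. MFAP5 is drawn at its lower bound of 101-fold, which exceeds the 4.06-fold of LTBP1, and FBN2 as the ratio of counts with its exact interval of 2.75 to 727.

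Markers were measured for the line and for other cell types. All 9 markers of sympathoadrenal neuroblasts were expressed, with a summed level of 2679 to 2808 CPM in the DNAJC12-KO libraries and 3211 to 3311 CPM in the WT libraries (3 called higher and 5 lower). The 8 fibroblast markers summed to 606 to 733 CPM in the DNAJC12-KO libraries and 507 to 543 CPM in the WT libraries, with 4 called higher and 1 lower. PDGFRA (1.65 ± 0.09) and FAP (2.10 ± 0.13) were higher, and LUM (-1.17 ± 0.07) was lower. Of 6 smooth muscle and pericyte markers, 5 had a row and summed to 5217 to 6527 CPM in the DNAJC12-KO libraries and 5995 to 6289 CPM in the WT libraries, nearly all of it RGS5. ACTA2 was higher (2.65 ± 0.12), while MYH11 had 0 to 2 estimated reads in any library. Of the endothelial markers, TEK had at most 0.280 CPM in any library, and PECAM1, CDH5 and KDR had 0 to 4 estimated reads per library. The leukocyte markers PTPRC and CD68 summed to 17.8 to 26.3 CPM in the DNAJC12-KO libraries and 10.0 to 13.9 CPM in the WT libraries, CD3E had no read and LYZ at most 2 in any library. The part of fibroblast-type expression in the values of the microfibril genes was not tested.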

How the data were processed

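RNA-seq libraries were made from total RNA depleted of ribosomal RNA with a stranded kit, per the labels' protocols. The submitters' processing notes name cutadapt 3.5, Salmon 1.10.0, DESeq2 1.42.1 and the build GRCh38.p14, without roles; annotation release and strand setting are not given in the sources used here. The deposited gene table holds whole-number counts per gene, not normalized. Its 403 repeated rows were removed from 21071, leaving 20668 genes, and its lowest row total is 10. The transcript files hold expected counts (Salmon's estimated reads) and TPM, per the file headers. GENCODE release 29 gave each transcript its gene; it holds 201667 of 251955 transcripts and 94.2% to 94.6% of the reads. The FBN1 and LTBP3 counts differ from these sums by up to 112 and 289 reads, those of the other 8 genes by less than 1.

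Counts were filtered by filterByExpr, scaled by TMM and tested on genotype with edgeR 4.0.16 (R 4.3.3), two-sided; SE was obtained as the size of the log2 fold change divided by the root of F. The test was tested on simulated data. Replicates of a genotype differed by more than counting noise (chi-square per gene of 4.37 to 22.7). Intervals are exact 95% binomial intervals and, like the floor of 3 counts, cover counting error only, since the reads carry no molecular identifiers. Salmon divides reads among similar transcripts, so transcript values are estimates. Gene positions, names and promoters came from RefSeq tables of GRCh38.p14, and transcript starts from GENCODE. Members, lists and tests were chosen with earlier results of these data known. Named genes are the 10 members, DNAJC12, up to 4 called genes per partner list with the smallest adjusted p, and the markers. TGFB1, TGFB3, NRROS, ITGAV and FBN3, and the overlapping genes SLC27A6 and MAPK7, fall outside this rule and were named after their values were seen. The alternatives were DESeq2 1.42.0, its size factors, library size alone, other filters, a replicate block, transcript-based counts (summed, or TPM scaled to the library total) and each library left out.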

Additional observations from a re-analysis of the deposited data

How the results depend on the processing

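The calls of FBN1, LTBP1, LTBP3 and MFAP2 kept their direction and their side of the threshold in all 14 alternatives, with log2 fold changes of 1.16 to 1.41, 1.96 to 2.10, 0.51 to 0.64 and -0.75 to -0.60. MFAP4 did not pass in any of them. The number of members called was 5 to 7; the 7 came without a filter on low counts, where FBN2 was called (adjusted p = 0.0479; 0.0756 by DESeq2). LTBP4 was the call that depended on the processing: -0.35 on counts summed from transcripts (adjusted p = 0.0575), 0.044 on length-corrected ones, and -0.46 to -0.24 with 1 library left out. ELN changed sign with library sizes alone (-0.036), length-corrected counts (-0.013) and within the range of -0.037 to 0.088 with 1 library left out; LTBP2 ran from -0.11 to 0.017 with 1 left out. The cause was not tested. The bound for MFAP5 ran from 66.4 to 107: it was 66.4 to 68.3 with a WT library left out, where fewer WT counts set the floor, and 93.9 to 107 with a DNAJC12-KO library left out. The FBN2 ratio ran from 11.7 to 21.3; without WT replicate 1 FBN2 had no WT count and no ratio.

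Over all genes, 4270 were called, 2966 (without DNAJC12-KO replicate 3) to 4772 with 1 library left out, and 2563 with length-corrected counts; 23 partner genes were called, 19 to 27 with 1 library left out and 15 with length-corrected counts. Library sizes alone gave 2055 higher and 2438 lower, against 2383 and 1887, and moved the median gene by -0.06. A replicate block called 4565 genes, 6 members and 23 partners and changed no call of a member. Whether the numbers pair the libraries is not settled. Deviations of same-numbered libraries correlated at 0.06, -0.03 and -0.07. DNAJC12-KO replicate 1 correlated best with its own number, and replicates 2 and 3 with another. With 3 libraries per genotype, such values cannot exclude pairing. Depth limits FBN2, FBN3 and the WT level of MFAP5.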

Other observations

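DNAJC12-KO replicate 2 was the lowest of the 3 DNAJC12-KO libraries for MFAP2, MFAP4, LTBP2, LTBP3 and LTBP4, and the highest for FBN1, FBN2, ELN and LTBP1. The transcripts with the most reads held 62.8%, 56.7%, 57.2%, 66.7% and 67.4% G and C for the first 5 genes in GENCODE release 29. They held 45.9% for FBN1, 48.2% for FBN2, 63.3% for ELN and 51.7% for LTBP1. For MFAP5, where DNAJC12-KO replicate 2 lay between the other DNAJC12-KO libraries, the leading transcript held 39.8%. Whether base composition bears on this library was not tested.

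The LTBP3 transcript ENST00000526927 had 83.1, 154 and 49.1 estimated reads in the DNAJC12-KO libraries, or 2.73%, 5.50% and 1.48% of LTBP3 reads, and was listed at 0 in each WT library. The LTBP3 transcripts ENST00000322147 and ENST00000301873, which took most reads, stood at 1.32 and 1.63 times the WT level in RPM. The transcript ENST00000526927 was picked after its values were seen, and its reads are an estimate among 19 similar transcripts with reads.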
